A study of Arabidopsis thaliana with 35 samples.

Results

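The measurements compare how root and hypocotyl of Arabidopsis thaliana seedlings responded to 24 h of warmth, by testing the difference of the temperature effects itself. For every gene the value is the change from 20 to 28 °C in the root minus the same change in the hypocotyl, on the log2 scale, so that a value above 0 means that the root rose more or fell less. The comparison uses 12 of the 35 arrays, 3 in each of 4 groups, taken by organ, temperature and time from the array labels. Seedlings were of a single natural accession, RRS-7. They grew for 5 days at 20 °C under white light of 120 µmol per square metre and second, in days of 16 h light and nights of 8 h. At ZT 7, counted in hours from lights on, they were moved to 28 °C or stayed at 20 °C as controls. Hypocotyls, cotyledons and roots were harvested after 3 h or 24 h, the latter at ZT 7 of day 6, and total RNA was hybridised to Affymetrix arrays. The 4 groups are thus root at 20 °C, root at 28 °C, hypocotyl at 20 °C and hypocotyl at 28 °C, all harvested 24 h after the shift. Each replicate was a pool of dissected material from several harvest sessions, so a value describes the pooled organ and not a single plant, and p-values measure the spread between these pools. In such tissue, fewer cells of a type and less RNA per cell cannot be told apart.

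A moderate rise in ambient temperature changes seedling growth without causing heat damage: hypocotyls and petioles elongate, and roots grow faster. In the shoot this response runs through phytochrome B and the transcription factor PIF4, which raises auxin synthesis, while in the root temperature also acts locally. In every organ warmth changes the balance of protein folding, and chaperones of the heat shock families are among its best-known targets.

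The organ labels were checked against markers. Summed on the linear scale, the 3 measured green tissue genes (LHCB4.1 and LHCB4.2 of the light-harvesting antenna and the Rubisco activase RCA) stood at 18125 to 20844 in the hypocotyl arrays and at 327 to 514 in the root arrays. The 5 measured root genes (EXPA7, EXPA18, PYK10, LBD16 and LBD29) summed to 10083 to 14122 in root and to 6693 to 7479 in hypocotyl, where PYK10 made up most of the sum. The stomatal lineage genes SPCH, MUTE and FMA were all dim in the root arrays, below the 25th percentile of the table. Pairs of replicates in the 4 groups had a Pearson r between 0.995 and 0.997 across the 22746 probe sets, and no columns were identical.

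Of 13355 genes tested, 999 (7.48%) differed between the organs in their response to warmth at an adjusted p under 0.05 in limma's moderated test. The difference was above 0 for 491 genes (3.68%) and below 0 for 508 (3.8%), and it reached at least 2-fold for 103 and 54 of them. Called differences had a median size of 0.64 and ran from 0.31 to 3.29. Over all genes the median difference was 0.008, and 2536 genes had an unadjusted p under 0.05. Leaving out 1 array at a time gave 362 to 530 genes above 0 and 379 to 526 below 0.

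Most of the called differences came with a change in the root. Root alone passed its own test of 28 against 20 °C for 610 of the 999 genes, and the hypocotyl alone for 216. Both organs passed in the same direction for 43, in opposite directions for 71, and neither did for 59. The difference is built from the same arrays as these effects, so the classes are a description of it and no separate evidence. The temperature effect itself passed for 2364 genes in root (17.7%; 8.39% rose and 9.31% fell) and for 1291 in hypocotyl (9.67%; 5.08% rose and 4.58% fell). The hypocotyl count fell to 827 with replicate 1 at 20 °C left out, and to 746 with replicate 2 at 28 °C left out. Both organs moved the same way for 472 genes, 20.0% of the root calls and 36.6% of the hypocotyl calls, and for 429 of these the difference between organs did not pass. Across all genes the 2 effects had a Pearson's r of 0.35, which is a description, since genes are not independent replicates.

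**Figure D1:**
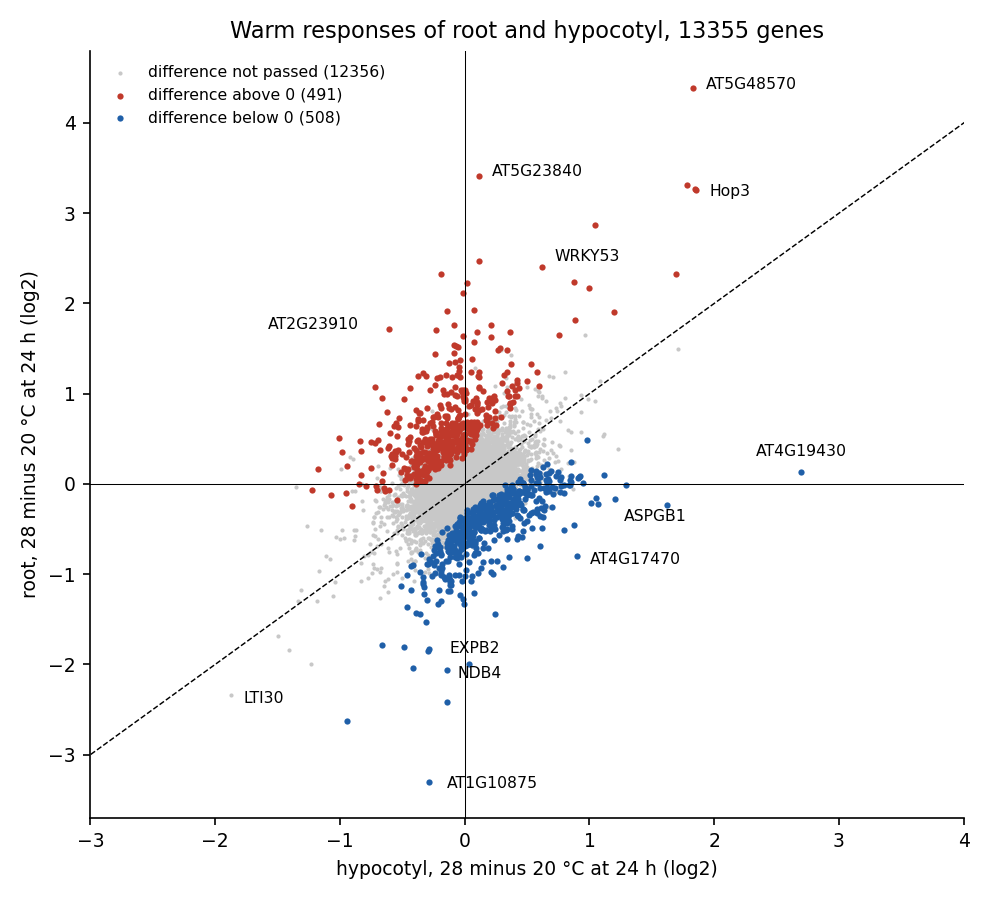
Warm response of the hypocotyl (x axis) and of the root (y axis) at 24 h, log2 of 28 over 20 °C, for 13355 genes, with the dashed line marking equal responses. The 491 genes whose difference passed above 0 (red) and the 508 below 0 (blue) lie on either side of the line, and several red points with rises in both organs, such as Hop3 and AT5G48570, lie far above it.

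The most positive difference was that of AT5G23840, a gene with a locus code and no symbol in the annotation used here. In root its log2 values were 7.03, 7.02 and 7.21 at 20 °C and 10.61, 10.54 and 10.35 at 28 °C. In hypocotyl they were 3.87, 4.00 and 4.11 at 20 °C and 3.71, 4.31 and 4.31 at 28 °C. The root groups were far apart, and the hypocotyl groups overlapped near the bottom of the scale. The difference was 3.29 ± 0.16 (SE, adjusted p = 1.4e-15), with a 10.6-fold rise in root and an effect of 0.12 ± 0.11 in hypocotyl. AT1G70720 (2.51 ± 0.16) and AT2G25150 (2.35 ± 0.17) followed the same course, with root rises of 2.33 and 2.47 and overlapping hypocotyl groups.

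At the other end, AT1G10875, also without a symbol, stood at 6.86, 6.94 and 7.45 in root at 20 °C and at 3.82, 3.69 and 3.84 at 28 °C. Its hypocotyl values were 3.55, 3.55 and 3.61 at 20 °C and 3.31, 3.31 and 3.25 at 28 °C. Every root array at 28 °C lay far below every root array at 20 °C, near the level of the hypocotyl, whose groups were also separated but not past the test (−0.28 ± 0.13, adjusted p = 0.17). The difference was −3.02 ± 0.18 (adjusted p = 1.71e-13), with a measured 9.84-fold fall in root. Root at 28 °C and both hypocotyl groups lay below the 25th percentile of the table, 3.98, so these sizes may be lower bounds. AT2G43890 had a difference of −2.28 ± 0.15, with a root effect of −2.42 and overlapping hypocotyl groups. AT4G19430 reached its difference of −2.56 ± 0.38 from the hypocotyl side. Its hypocotyl rose 6.48-fold (2.70 ± 0.27), from 4.38, 5.94 and 4.29 to 7.23, 8.22 and 7.25. Replicate 2 was the highest at both temperatures, and the root arrays overlapped between 2.91 and 3.38. The cotyledon, measured on other arrays, had an effect of 4.75 for AT4G19430.

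**Figure D2:**
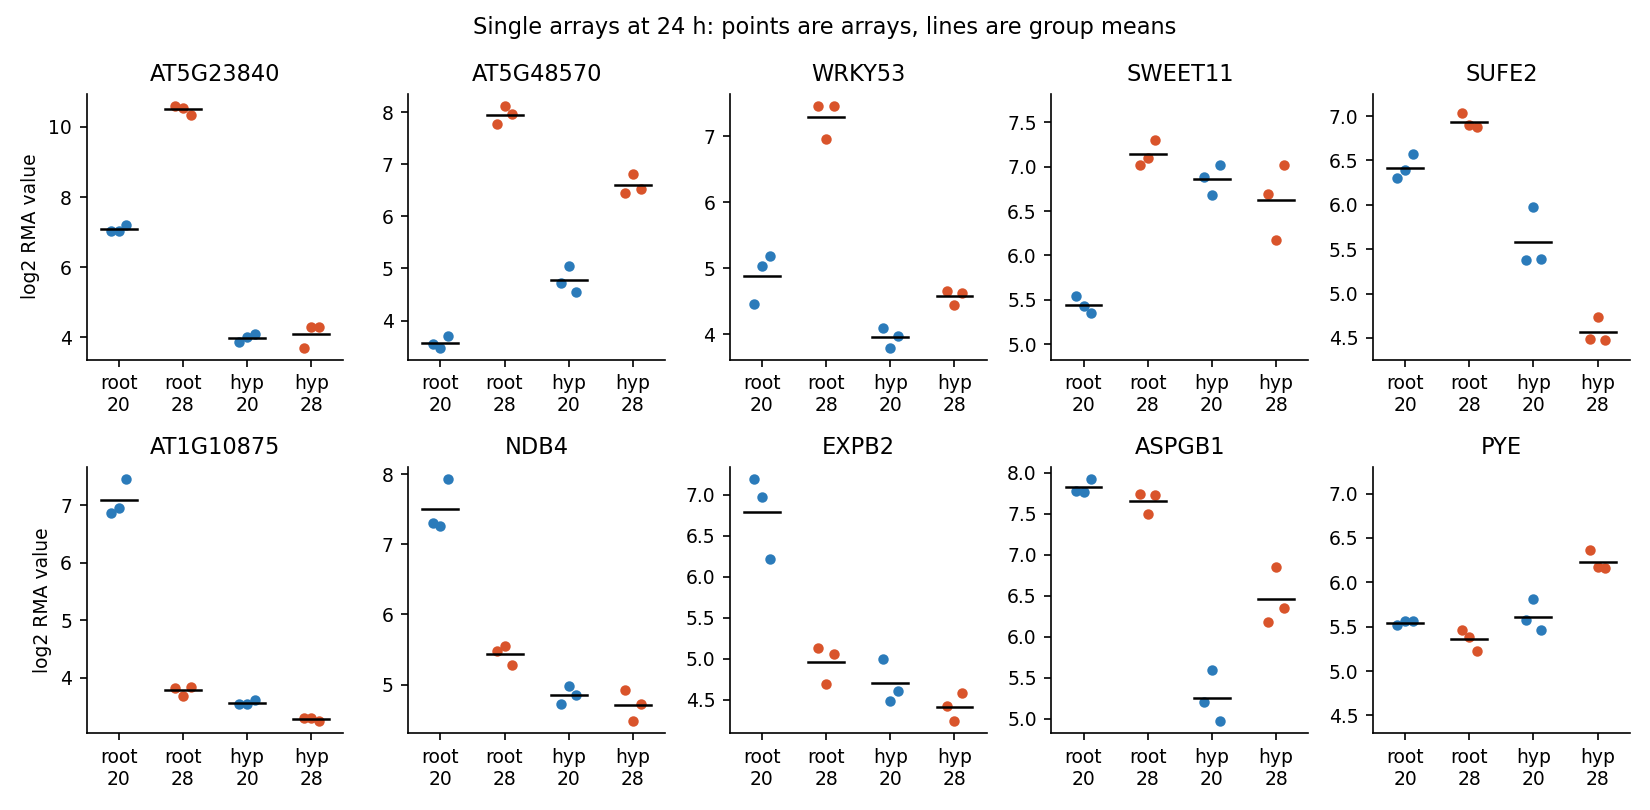
Log2 RMA values of the 3 arrays of each group at 24 h (blue 20 °C, orange 28 °C) for 10 genes, with a line at each group mean and a y scale of its own in each panel. The root groups of AT5G23840, AT5G48570, WRKY53 and SWEET11 are separated upwards and those of AT1G10875, NDB4 and EXPB2 downwards, and ASPGB1 and PYE rose in the hypocotyl.

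Protein folding genes rose more in root. Of 8 measured small heat shock protein genes, which hold unfolding proteins in a soluble state, 5 had a larger rise in root and 0 a smaller one (median 0.95, against 0.008 over all genes). In root 7 of the 8 rose, in hypocotyl 4. Of 9 cytosolic Hsp70, Hsp90 and Hsp100 genes and their co-chaperones, 7 had a positive difference and 0 a negative one (median 0.77). In root 8 of the 9 rose, in hypocotyl 4. Of all genes, 3.68% passed with a positive difference, 8.39% rose in root and 5.08% rose in hypocotyl. Leaving out any 1 array left 5 positive small heat shock genes, and 5 to 7 in the second list. The count of negative small heat shock genes became 1 without replicate 3 of hypocotyl at 28 °C or replicate 3 of root at 20 °C. In the second list it stayed 0.

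AT5G48570, listed with the synonyms ROF2 and FKBP65, encodes a heat-inducible peptidyl-prolyl isomerase. Its root values were 3.54, 3.48 and 3.70 at 20 °C and 7.78, 8.13 and 7.96 at 28 °C. Its hypocotyl values were 4.72, 5.04 and 4.55 at 20 °C and 6.45, 6.82 and 6.53 at 28 °C. The root started below the hypocotyl and ended above it. The root at 20 °C lay below the 25th percentile of the table, 3.98, where no detection call was at hand, so its fold is uncertain and may be a lower bound. The same holds for the root level at 20 °C of 5 of the 8 small heat shock genes. In hypocotyl 3 of the 8 were dim at 20 °C and 2 at 28 °C. Rises there may be understated too, so these differences can err in either direction. The measured rise was 20.9-fold in root and 3.56-fold in hypocotyl, a difference of 2.55 ± 0.26 (adjusted p = 4.16e-08).

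Hop3, which hands client proteins from Hsp70 to Hsp90, went from 5.01, 5.02 and 4.83 to 8.31, 8.24 and 8.09 in root. In hypocotyl it went from 4.39, 5.13 and 4.55 to 6.42, 6.88 and 6.32, so that both organs rose without overlap between temperatures. The difference was 1.4 ± 0.21 (adjusted p = 3.54e-05). Among the small heat shock proteins, AT2G29500 (1.82 ± 0.32), AT5G51440 (1.42 ± 0.26) and AT1G53540 (1.37 ± 0.27) also rose in both organs and more in root. AT5G47600 of the same list stood apart from these. It rose from 3.91, 3.94 and 3.93 to 5.84, 6.13 and 6.50 in root and stayed between 3.71 and 4.03 in all 6 hypocotyl arrays, a difference of 2.21 ± 0.15.

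SGT1A, a co-chaperone of Hsp90, had a difference of 1.23 ± 0.16 with a root effect of 1.51. Hsp70-2 differed by 0.95 ± 0.13 and AT3G09440, on the same list, by 0.77 ± 0.15. Fes1A, a nucleotide exchange factor of Hsp70 (0.58 ± 0.18), and ATHSP22.0 (0.52 ± 0.12) also passed. HSA32, a protein needed to keep acquired thermotolerance, differed by 0.63 ± 0.16 (adjusted p = 0.0118), which was lost without replicate 2 of root at 28 °C (0.54) or replicate 1 of root at 20 °C (0.52). Hop1 (−0.07 ± 0.16) and Hop2 (0.32 ± 0.14), relatives of Hop3, did not pass. The chloroplast chaperonin gene Cpn60beta2, the single measured organelle chaperone, rose in both organs and by 0.90 ± 0.14 more in root. Of 3 measured genes of endoplasmic reticulum folding 0 passed by limma's test, 1 of them at an unadjusted p under 0.05. Among all 13355 genes 7.48% passed, and 2536 were at an unadjusted p under 0.05. AT4G21870 was the one small heat shock gene with an effect on the other side, −0.50 ± 0.17, and it did not pass (adjusted p = 0.0746).

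**Figure D3:**
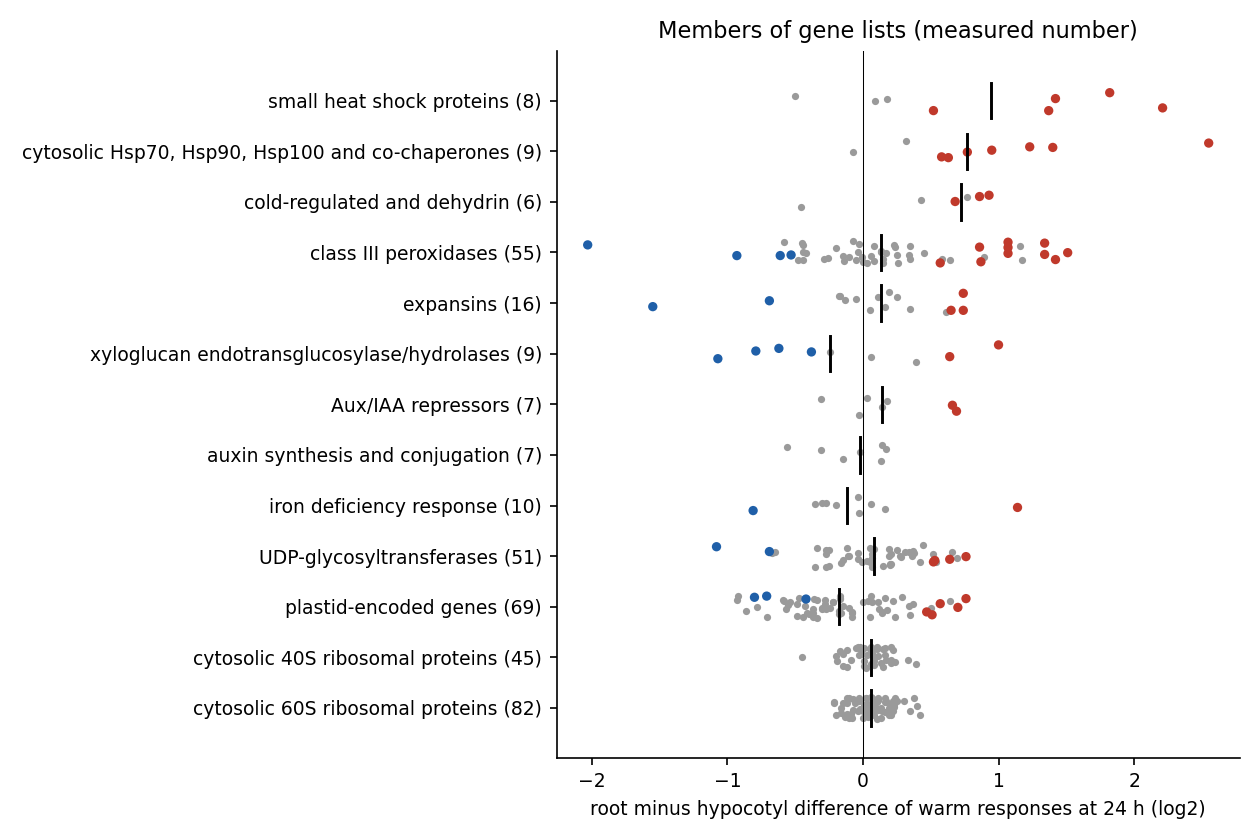
Root minus hypocotyl difference of warm responses at 24 h (log2) for the measured members of 13 gene lists, with the number measured in brackets and the median as a black bar. Red and blue points passed above and below 0, grey points did not pass, and chaperone members lie mostly to the right, up to 2.55.

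Cold-regulated genes showed the difference from the hypocotyl side. All 6 measured members fell in hypocotyl at 28 °C, where 4.58% of all genes fell. In root 1 fell and 0 rose, where 9.31% of all genes fell and 8.39% rose. The difference passed above 0 for 3 members (median 0.72), against 3.68% of all genes. COR15B, a protein that protects chloroplast membranes in the cold, stood at 6.19, 6.00 and 6.03 in hypocotyl at 20 °C and at 5.29, 5.15 and 5.28 at 28 °C. In root it stood at 4.52, 4.13 and 4.44 and at 4.42, 4.58 and 4.37, with overlap. The difference was 0.93 ± 0.26 (adjusted p = 0.0243), lost without replicate 1 of hypocotyl at 20 °C (0.87), replicate 2 of hypocotyl at 28 °C (0.88) or replicate 2 of root at either temperature (0.81 at 20 °C, 0.87 at 28 °C). Its relative COR15A differed by 0.86 ± 0.19 and COR27, which also acts on the clock, by 0.68 ± 0.16. Root levels of COR15A and COR27 were near the bottom of the table, between 2.91 and 3.69, and with dim genes left out 1 member passed in place of 3. The dehydrin gene LTI30 fell in both organs, from 11.04, 11.03 and 10.99 to 8.64, 8.63 and 8.78 in root and from 8.88, 8.92 and 8.75 to 6.83, 6.84 and 7.27 in hypocotyl. Both organs were separated by temperature, and the difference was −0.46 ± 0.38 with a 95% interval of −1.23 to 0.31 (adjusted p = 0.592).

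Outside the chaperones, the largest positive differences among genes with a symbol were rises in root. SWEET11, a sucrose exporter, rose from 5.54, 5.43 and 5.35 to 7.02, 7.10 and 7.30 in root. In hypocotyl it stood at 6.88, 6.68 and 7.02 and at 6.69, 6.17 and 7.02. The warmed roots thus reached the hypocotyl level, which overlapped between temperatures. The difference was 1.93 ± 0.20 (adjusted p = 4.41e-08), and SWEET14 of the same family differed by 0.96 ± 0.19. WRKY53, a transcription factor of defence and leaf senescence, rose from 4.46, 5.03 and 5.18 to 7.46, 6.95 and 7.46 in root. Its hypocotyl arrays went from 4.09, 3.80 and 3.98 to 4.66, 4.44 and 4.63, separated but not past the test (0.62 ± 0.23, adjusted p = 0.0924). The difference was 1.78 ± 0.33 (adjusted p = 0.000473).

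CML37, a calmodulin-like calcium sensor, differed by 1.58 ± 0.26 and the acylhydrolase gene DLAH by 1.54 ± 0.29. Both had root rises without overlap and hypocotyl groups that overlapped. The glutaredoxin gene GRX480 (1.06 ± 0.23), the sulfurtransferase gene STR18 (1.19 ± 0.21) and the receptor-like kinase gene B120 (1.12 ± 0.13) showed the same arrangement. AR781 had a difference of 1.33 ± 0.42 (adjusted p = 0.0452), which was lost without any 1 of 11 of the 12 arrays. Of the 7 measured WRKY genes, WRKY53 was the 1 that passed in the difference (14.3%, against 7.48% of all genes).

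Falls in root led the negative differences among genes with a symbol. NDB4, a mitochondrial NAD(P)H dehydrogenase of the alternative respiratory pathway, fell from 7.31, 7.26 and 7.93 to 5.48, 5.55 and 5.28 in root. In hypocotyl it lay between 4.48 and 4.98 in all 6 arrays, with overlap. The difference was −1.92 ± 0.22 (adjusted p = 3.76e-07), a 4.17-fold fall in root. The cytochrome P450 gene CYP71B22 (−1.26 ± 0.18), the glycosyltransferase gene UGT73B4 (−1.08 ± 0.25) and the serine carboxypeptidase-like genes scpl31 (−1.10 ± 0.17) and scpl40 (−0.94 ± 0.17) likewise fell in root. The hypocotyl levels of scpl31 and scpl40 lay between 3.64 and 3.97, below the 25th percentile of the table. The relative of SKU5 called sks16, with hypocotyl levels between 3.55 and 4.09, differed by −0.88 ± 0.18. PR-1-LIKE, a relative of the defence protein PR-1, differed by −0.90 ± 0.20. Its hypocotyl means, 3.74 at 20 °C and 3.61 at 28 °C, were also below the 25th percentile of the table.

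Other negative differences came from rises in the hypocotyl. ASPGB1, an asparaginase that releases ammonium from asparagine, rose from 5.20, 5.59 and 4.97 to 6.18, 6.85 and 6.35 in hypocotyl. In root it stood at 7.78, 7.76 and 7.92 and at 7.74, 7.5 and 7.73, where the arrays at 28 °C lay just below those at 20 °C and the effect did not pass (−0.16 ± 0.16). The difference was −1.37 ± 0.23 (adjusted p = 0.000135). ALN, the allantoinase of purine nitrogen recycling, had a difference of −0.83 ± 0.17, with a hypocotyl rise of 0.85 ± 0.12 and a root effect of 0.02 ± 0.12. These were the 2 of 3 measured genes of nitrogen uptake and assimilation that passed, against 7.48% of all genes. The bZIP transcription factor gene BZIP34 rose by 0.94 ± 0.09 in hypocotyl and overlapped in root, where it lay between 3.99 and 4.15, for a difference of −0.93 ± 0.13.

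Cell wall genes went both ways. Expansins loosen walls, and xyloglucan endotransglucosylase/hydrolases (XTH) cut and rejoin xyloglucan chains. Of 16 measured expansins, 3 had positive and 2 negative differences (median 0.13), 31.2% in all against 7.48% of all genes. EXPB2 fell in root from 7.19, 6.97 and 6.22 to 5.13, 4.69 and 5.06. In hypocotyl it stood at 5.00, 4.49 and 4.61 and at 4.42, 4.24 and 4.58. The difference was −1.55 ± 0.34 (adjusted p = 0.00338). EXLA2 followed at −0.69 ± 0.18, while EXPA7, known from root hairs, was at 0.74 ± 0.21, EXLA3 at 0.74 ± 0.20 and EXLA1 at 0.65 ± 0.20. The 3 positive calls became 0 without replicate 1 of root at either temperature, and 1 without replicate 3 of root or replicate 1 of hypocotyl at 28 °C. EXPA8 rose in both organs, by 0.98 ± 0.12 in root and 0.93 ± 0.12 in hypocotyl, with a difference of 0.05 ± 0.17.

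Of 9 measured XTH genes, 2 had positive and 4 negative differences (median −0.24), 66.7% in all against 7.48% of all genes. XTH26 fell in root from 5.58, 6.18 and 5.73 to 4.55, 4.72 and 4.67, and its hypocotyl values between 3.3 and 3.69 overlapped (difference −1.07 ± 0.18). XTH16 stood at 8.16, 8.01 and 8.23 and rose to 8.84, 8.96 and 8.91 in hypocotyl, and it overlapped in root (difference −0.79 ± 0.17). XTH21 (1.0 ± 0.26) and XTH32 (0.64 ± 0.12) rose in root. The negative calls became 2 without replicate 3 of root at either temperature, and the positive ones became 1 without replicate 2 of hypocotyl at 28 °C or replicate 3 of root at 20 °C. The glucomannan synthase gene CSLA03 fell in root and rose in hypocotyl (−0.99 ± 0.18), and so did EXO, a brassinosteroid-responsive gene of cell expansion (−0.93 ± 0.14). GH9C1, a cellulase of the glycosyl hydrolase 9 family, moved in the opposite sense (1.17 ± 0.20).

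Of 7 measured Aux/IAA repressor genes, which hold back auxin responses, 2 passed (28.6%, against 7.48% of all genes), both above 0. IAA18 rose from 5.88, 5.83 and 5.90 to 6.62, 6.6 and 6.72 in root, and its hypocotyl values between 6.79 and 7.22 overlapped, for a difference of 0.69 ± 0.13. IAA31 differed by 0.66 ± 0.13 at root levels between 3.70 and 4.42. IAA29, a known target of PIF4, had a difference of −0.03 ± 0.21 with a 95% interval of −0.45 to 0.39, and its groups overlapped in both organs. Of 7 genes of auxin synthesis and conjugation, 0 passed by limma's test, against 7.48% of all genes. An unadjusted p under 0.05 was reached by 2536 of all 13355 genes and by 1 of these 7. That gene, WES1, rose in both organs, by 0.55 ± 0.19 in root and by 1.11 ± 0.19 in hypocotyl, with a difference of −0.56 ± 0.27 (adjusted p = 0.262). PIF4 was not analysed here.

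Iron deficiency genes differed at 2 of 10 measured members (20.0%, against 7.48% of all genes), in opposite directions. PYE, a basic helix-loop-helix regulator, rose in hypocotyl from 5.57, 5.81 and 5.46 to 6.37, 6.17 and 6.16. In root it stood at 5.52, 5.56 and 5.56 and at 5.46, 5.38 and 5.23, slightly lower at 28 °C but not past the test. The difference was −0.81 ± 0.15 (adjusted p = 0.000357). AT3G13610, listed as F6'H1, makes the coumarins that roots secrete to mobilise iron. It fell in hypocotyl from 6.83, 6.77 and 6.69 to 5.72, 5.48 and 6.28, and stood between 10.02 and 10.53 in root, where the groups overlapped (difference 1.14 ± 0.24). BHLH101 rose in both organs and its difference of −0.35 ± 0.19 did not pass (adjusted p = 0.345).

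Class III peroxidases, which act on cell walls with hydrogen peroxide, contributed 10 positive and 4 negative differences among 55 measured members (median 0.13). That is 25.5% called, against 7.48% of all genes. AT4G11290 rose in root from 8.65, 8.65 and 8.79 to 9.44, 9.58 and 9.45 and fell in hypocotyl from 6.77, 7.16 and 7.08 to 6.15, 6.39 and 6.61. Its difference was 1.42 ± 0.16 (adjusted p = 1.98e-07). AT3G49960 differed by 1.51 ± 0.23 and AT5G64100 by 1.34 ± 0.39 (adjusted p = 0.0265). AT3G49960 was dim in hypocotyl, with means of 3.87 at 20 °C and 3.43 at 28 °C. The call of AT5G64100 was lost without any 1 of 8 arrays. Replicate 3 of hypocotyl at 28 °C stood at 8.19 for AT5G64100, above the other 2 at 7.14 and 7.25. The most negative member was AT1G49570, which fell in root from 6.16, 6.37 and 6.55 to 4.47, 4.37 and 4.25, a difference of −2.03 ± 0.18. In hypocotyl it overlapped between 3.92 and 4.27. Of 11 tau glutathione transferases, which detoxify by joining glutathione to foreign compounds, GSTU26 (1.23 ± 0.16) and GSTU20 (−0.77 ± 0.13) passed. Both moved in opposite directions in the 2 organs.

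Calls in other metabolic families went both ways. Of 51 measured UDP-glycosyltransferases, which attach sugars to small molecules, 4 were above 0 and 2 below (11.8% in all, against 7.48% of all genes). The positive calls became 2 without replicate 1 of hypocotyl at 28 °C, replicate 1 or 3 of root at 20 °C or replicate 2 of root at 28 °C. Of 24 measured cytochrome P450s 2 were above and 2 below 0 (16.7%), and the positive ones, CYP71B29 and CYP71B6, were both lost without replicate 2 of hypocotyl at 20 °C, replicate 1 of hypocotyl at 28 °C or replicate 1 of root at 28 °C. The count was 1 without replicate 1 of hypocotyl at 20 °C, any replicate of root at 20 °C or replicate 3 of root at 28 °C. In glucosinolate synthesis, BCAT4, which starts methionine chain elongation, rose in both organs and less in root (−0.50 ± 0.13). UGT74B1 was at 0.52 ± 0.16 (adjusted p = 0.0355), and leaving out 9 of the 12 arrays, one at a time, ended its call. Of 8 flavonoid genes 0 passed limma's test and 4 were at an unadjusted p under 0.05, as were 2536 of all 13355 genes. In a fit of the 12 compared arrays alone 3 passed, and 1 in several other settings.

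Of 69 measured plastid-encoded genes, 5 had positive and 3 negative differences (median −0.18), which at 11.6% is near the 7.48% of all genes. The 8 that passed were higher in hypocotyl than in root. The photosystem II gene psbF rose in root from 7.70, 7.64 and 7.42 to 8.63, 8.67 and 8.71, and in hypocotyl from 11.76, 11.64 and 11.70 to 12.08, 12.04 and 12.12, a difference of 0.70 ± 0.12. The cytochrome b6 gene petB differed by 0.76 ± 0.13. The NAD(P)H dehydrogenase subunit gene ndhD fell in root from 4.44, 4.53 and 4.49 to 3.87, 3.91 and 4.17 and overlapped in hypocotyl (−0.71 ± 0.18). The positive calls became 2 without replicate 3 of hypocotyl at 20 °C, replicate 1 of hypocotyl at 28 °C or replicate 3 of root at 28 °C, and 3 without replicate 1 of root at 20 °C. The negative calls became 1 without replicate 1 of hypocotyl or replicate 2 of root at 20 °C, and 5 without replicate 3 of hypocotyl or replicate 1 of root at 20 °C.

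Cytosolic ribosomal protein genes had falls in each organ, and no difference between the organs passed for them. Of 45 measured genes of the 40S subunit, 20 fell in root and 21 in hypocotyl, 14 in both (31.1%), and 1 rose in each. Of 82 genes of the 60S subunit, 30 fell in root and 43 in hypocotyl, 25 in both (30.5%). Of all genes 9.31% fell in root, 4.58% in hypocotyl and 1.89% in both. The difference had a median of 0.06 in both lists, and 0 members passed by limma's test, with 4 and 8 at an unadjusted p under 0.05. Of all 13355 genes 7.48% passed, and 2536 were at an unadjusted p under 0.05. With the quantile normalisation repeated, 1 and 4 members passed.

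Genes that moved in opposite directions numbered 71, of which 31 rose in root and fell in hypocotyl and 40 did the reverse. AT2G23910 rose in root from 7.49, 7.37 and 7.37 to 8.98, 9.34 and 9.06. It fell in hypocotyl from 5.66, 5.95 and 5.93 to 4.99, 5.10 and 5.62. The temperatures did not overlap in either organ, and the difference was 2.32 ± 0.21 (adjusted p = 2.39e-09). SUFE2, a partner of the cysteine desulfurase in iron-sulphur cluster assembly, rose in root from 6.30, 6.39 and 6.57 to 7.03, 6.90 and 6.88 and fell in hypocotyl from 5.38, 5.98 and 5.39 to 4.49, 4.74 and 4.48 (1.52 ± 0.25). AT5G62210 (1.79 ± 0.18), AT5G37690 (1.61 ± 0.18) and AT3G22620 (1.43 ± 0.22) followed the same course. In the reverse direction, AT4G17470 fell in root from 4.88, 5.04 and 4.81 to 4.27, 4.00 and 4.05 and rose in hypocotyl from 6.55, 6.85 and 6.86 to 7.49, 7.80 and 7.68, a difference of −1.70 ± 0.21. The bZIP gene BZIP61 (−1.31 ± 0.16) and the carboxypeptidase-like gene SCPL34 (−1.22 ± 0.13) also fell in root and rose in hypocotyl. BZIP61 stood at 8.4, 8.43 and 8.4 in root and 7.0, 7.14 and 7.58 in hypocotyl at 20 °C, and at 28 °C the organs met between 7.76 and 8.09.

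**Figure D4:**
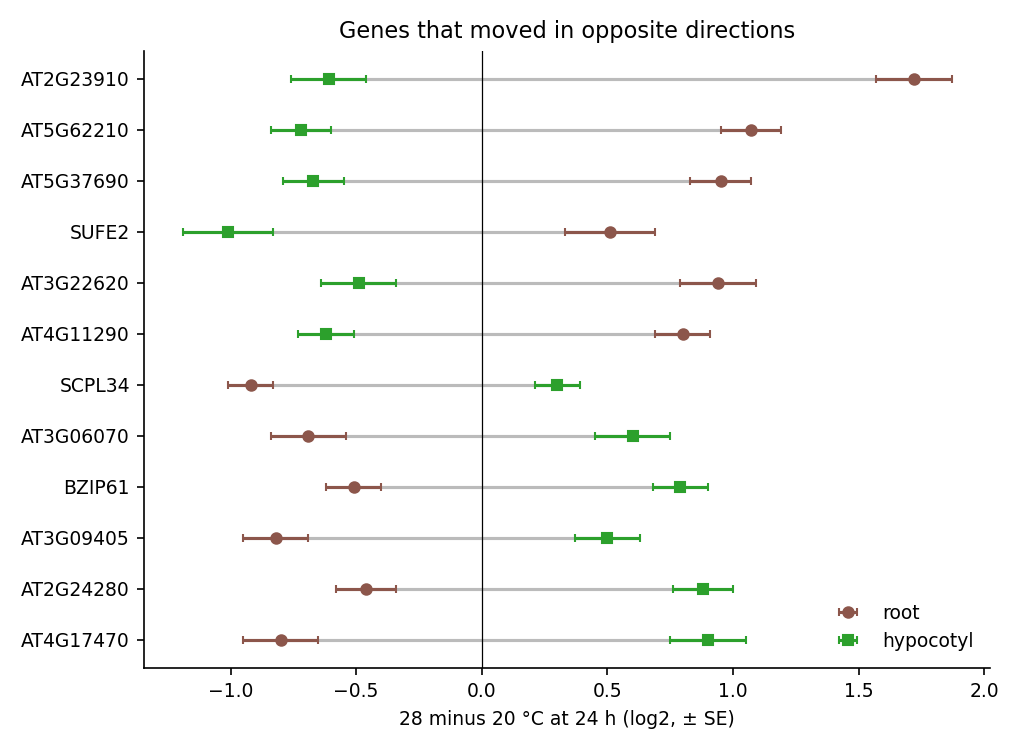
Warm response at 24 h (log2 ± SE, 3 arrays per group) in root (brown circles) and hypocotyl (green squares) for 12 of the 18 named genes whose effects passed in opposite directions, the 6 with the largest difference on each side. The root effects run from −0.92 for SCPL34 to 1.72 for AT2G23910.

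Shares of genes higher in 1 of the organs differed between the classes. The arrays of 20 °C at 3 h, which the 24 h comparison does not use, gave the root minus hypocotyl level of each gene. Of the 491 genes with a positive difference, 38.5% were at least 2-fold higher in root there and 14.9% in hypocotyl. Of the 508 negative ones 22.8% and 23.4% were, and of all genes 10.1% and 9.76%. Of the 31 genes that rose in root and fell in hypocotyl, 17 were higher in root by that much and 7 in hypocotyl. On the same arrays 176 genes stood at least 3 log2 units higher in root than in hypocotyl. Of these, 56 fell and 1 rose in hypocotyl at 28 °C, where 4.58% of all genes fell and 5.08% rose. In root 60 of the 176 fell and 31 rose, where 9.31% of all genes fell and 8.39% rose. Their median value was 4.89, 4.92 and 4.84 in the hypocotyl arrays at 20 °C and 4.47, 4.36 and 4.75 at 28 °C, and 8.45 to 8.57 in all root arrays. The difference passed above 0 for 43 of the 176 and below 0 for 21, against 3.68% and 3.8% of all genes. Of the 352 genes higher in hypocotyl by the same margin, 52 rose and 23 fell in hypocotyl, and 45 rose and 26 fell in root. For these 352 genes the difference passed above 0 for 21 and below 0 for 31. The summed root markers were at 6693 to 7293 in hypocotyl at 20 °C and at 6728 to 7479 at 28 °C. In root they were at 10083 to 10621 and at 13189 to 14122. PYK10, with a hypocotyl effect of 0.03, made up most of the sum. The hypocotyl effects of the other 4 were −0.27 for EXPA7, −0.29 for EXPA18, −0.26 for LBD16 and −0.23 for LBD29, and none of them passed. All 5 had differences above 0, of which EXPA7 and LBD29 passed. These 2 calls became 0 without replicate 1 of root at 28 °C, 1 when replicate 3 of hypocotyl, replicate 1 or 2 of root (all at 20 °C) or replicate 2 of hypocotyl at 28 °C was left out, and 4 without replicate 3 of hypocotyl at 28 °C. The part of these levels in the organ differences was not tested. Of the positive genes 15.1% were dim in hypocotyl at both temperatures, and of the negative genes 6.89% were dim in root, against 29.1% and 28.6% of all genes.

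The same difference was measured at 3 h on other arrays, with 2 in place of 3 for root at 28 °C. There 708 genes (5.3%) differed between organs, 2.59% above 0 and 2.71% below, or 444 and 394 without 1 or the other of those 2 arrays. Of the 999 genes called at 24 h, 749 (75.0%) had the same sign at 3 h, 212 also passed at 3 h with that sign, and 12 passed with the opposite one. The 212 genes are 21.2% of the calls at 24 h and 29.9% of those at 3 h. AT1G10875 was at −2.84 ± 0.19 at 3 h and NDB4 at −1.79 ± 0.24, close to their values at 24 h. AT5G48570 was at 3.4 ± 0.28 and Hop3 at 1.82 ± 0.23.

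The change of the difference from 3 h to 24 h passed for 215 genes (1.61%), 150 upwards (1.12%) and 65 downwards (0.487%). Harvest was at ZT 10 of day 5 for 3 h and at ZT 7 of day 6 for 24 h. Time in warmth, time of day and seedling age thus changed together and cannot be told apart. Among the 999 genes it passed for 140, and 129 of these lay farther from 0 at 24 h, a direction favoured by choosing the genes on their 24 h values. Single arrays moved this count: 215 became 141 without replicate 1 of hypocotyl at 20 °C and 3 h, 100 without replicate 2 of root at 28 °C and 3 h, 125 without replicate 2 of hypocotyl at 28 °C and 24 h, 127 without replicate 2 of root at 28 °C and 24 h, and 123 without replicate 1 of root at 20 °C and 24 h. AT5G23840 was at 0.09 ± 0.17 at 3 h, so that its change to 24 h was 3.2 ± 0.23 (adjusted p = 1.25e-10). SWEET11 was at 0.20 ± 0.21 at 3 h and changed by 1.73 ± 0.29. AT5G47600 was at 0.12 ± 0.16 and changed by 2.08 ± 0.23, whereas AT1G53540 of the same list was at 3.51 ± 0.29 at 3 h and changed by −2.14 ± 0.39. Ribosomal protein genes passed above 0 at 3 h for 16 of 45 (40S) and 24 of 82 (60S) members, with 0 below 0 in either list. Of all genes 2.59% passed above 0 and 2.71% below 0 at 3 h. These list counts rest on 2 arrays for root at 28 °C and were not repeated without either of them. The expansin gene EXPA8, at 0.05 ± 0.17 at 24 h, was at −1.03 ± 0.18 at 3 h.

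**Figure D5:**
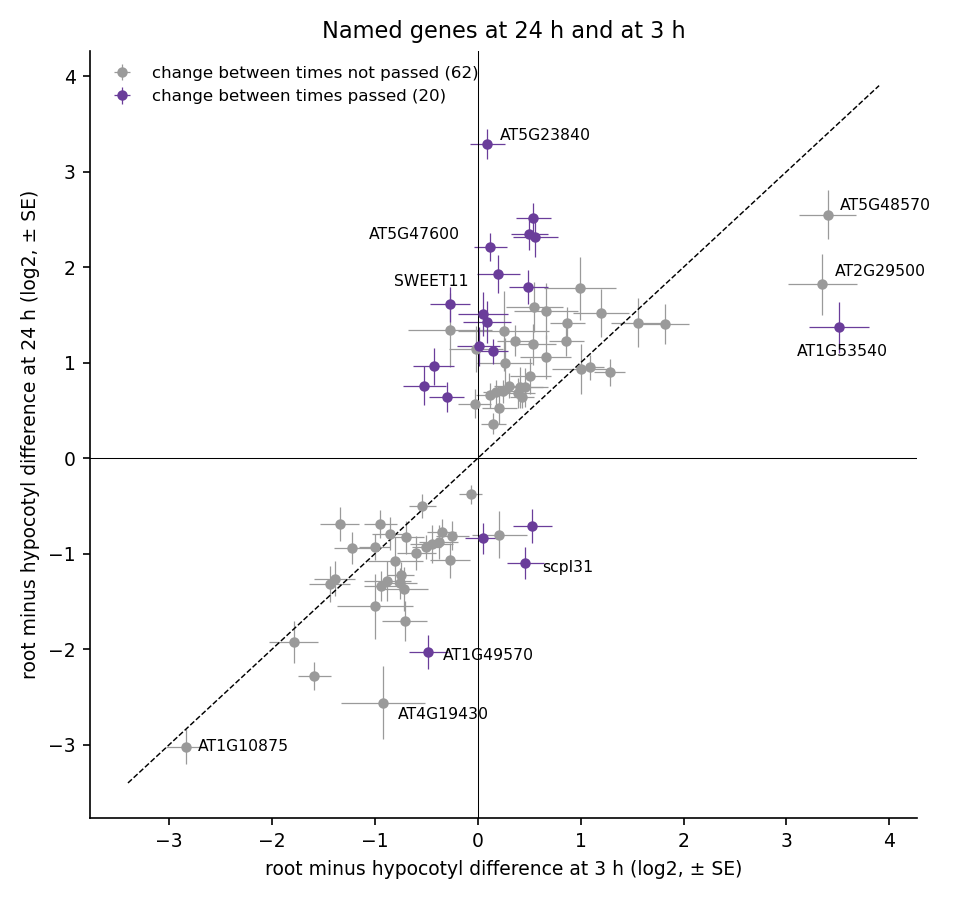
Root minus hypocotyl difference of warm responses at 3 h (x axis) and at 24 h (y axis), log2 ± SE, for the 82 named genes that passed at 24 h, with the dashed line marking equal differences. The 20 genes whose change between times passed (violet) include AT5G23840 and SWEET11 near 0 at 3 h, and AT1G53540 below the line at 3.51.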

How the data were processed

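Values were the log2 RMA expression values of the series matrix that the authors deposited, 35 arrays by 22746 probe sets. RMA and limma are named, with no version, per the submitters' processing notes, and the set of arrays behind each normalisation is not given in the sources used here. Array medians ran from 5.65 to 5.93, and no counts exist, so the number of arrays limits the precision. Groups came from the sample titles. Probe sets naming 1 gene in the platform annotation (13513) were reduced to the brightest per gene, which left 13355 genes, of which 13285 matched RefSeq (TAIR10.1). A linear model of 12 group means over all 35 arrays was fitted with limma 3.58.1 in R 4.3.3, with moderated tests on 23 residual degrees of freedom and Benjamini-Hochberg adjustment over all genes. The threshold was an adjusted p of 0.05, and SE is the model's standard error.

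Named genes were the 15 most positive and 15 most negative differences with a symbol, the 5 most extreme whatever their name, up to 4 passing members per list, up to 6 per direction with opposite effects, and 9 genes named whatever their values. The comparison, the genes and the lists were chosen with earlier results of these data known. Tested on simulated data for the 24 h difference (13355 genes, 200 changed), the procedure recovered 31% of changes of 0.5 and 97% of changes of 1 on the log2 scale, with 4.48% of calls wrong. Alternatives were other fits, scalings, filters and summaries of probe sets, a replicate block, and leaving out each array. Dim means below the 25th percentile of the table. Probe sets naming several genes (503) or not listed (8730) were left out.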

Additional observations from a re-analysis of the deposited data

Results flagged for a closer look

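For 21 named genes the organ difference at 24 h differed from that at 3 h by limma's test of the change itself, so that the same contrast gave unequal effects at the 2 times. Each value is the difference at 24 h minus that at 3 h, on the log2 scale. Of all genes 1.61% passed this test, 1.12% upwards and 0.487% downwards. Except for EXPA8, the 21 genes were named because of their 24 h values. The change contains those values, so changes away from 0 at 24 h were favoured. The changes were upwards for 16 genes. AT5G23840 changed by 3.2, AT5G47600 by 2.08, AT1G70720 by 1.97, AT5G37690 by 1.89, AT2G25150 by 1.85 and AT2G23910 by 1.76. The sugar transporter genes SWEET11 and SWEET14 changed by 1.73 and 1.39. AT3G49960, a peroxidase, changed by 1.46, AT3G22620 by 1.34, AT5G62210 by 1.3, UGT84A1 by 1.28, GH9C1 by 1.16, EXPA8 by 1.08, B120 by 0.97 and UGT72E3 by 0.94. The changes were downwards for 5 genes. The small heat shock gene AT1G53540 changed by −2.14, scpl31 by −1.57, the peroxidase gene AT1G49570 by −1.55, ndhD by −1.24 and CYP71B26 by −0.89. The 3 h values rest on 2 arrays for root at 28 °C. Without replicate 2 of that group the count over all genes fell from 215 to 100.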

How the results depend on the processing

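The number of genes with a 24 h difference was 999, 929 to 1076 under 9 other settings and 752 to 1056 without 1 array. The root effect ran from 2282 to 2750 and from 1839 to 2018 without 1 array, and the hypocotyl effect from 974 to 1403 and from 746 to 1306. The 3 h difference ran from 616 to 779 and from 394 to 699, and the change between times from 169 to 307 and from 100 to 279. The cause of these shifts was not tested. The lowest hypocotyl counts, 746 and 827, came without replicate 2 at 28 °C and replicate 1 at 20 °C. Of 82 genes that passed and were named by the rule, 70 kept direction and call in all their alternatives. The other 12 lost the call without at least 1 array, and 0 of 1718 estimates changed sign. A change of sign was unlikely, since the genes were chosen as passing and the alternatives share most arrays. These 12 are AR781, AT5G64100, COR15B, CYP71B29, CYP71B6, EXLA3, EXPA7, PEX4, UGT74B1, UGT84A1, XTH21 and cemA. Of 6 further list members named in the text, HSA32, Fes1A, EXLA1 and LBD29 also lost the call without at least 1 array, and AT3G09440 and ATHSP22.0 kept it without any 1. Other scalings moved the median of all genes from 0.008 to between −0.006 and 0.018. Counts of list members moved in a few settings. With the compared arrays alone, plastid-encoded calls went from 8 to 5, flavonoid calls from 0 to 3, reference genes from 1 to 0, and auxin synthesis and 40S genes from 0 to 1. With dim genes left out, Aux/IAA calls went from 2 to 1 and cold-regulated calls from 3 to 1. Repeated quantile normalisation took 60S genes from 0 to 4. The groups share replicate numbers, which only name the samples: same-numbered arrays had correlations of deviations of −0.197 to 0.128 (median −0.013, 3 of 18 over 0.1). With the replicate number as a block the counts were 984 for the 24 h difference, 2335 for root, 1301 for hypocotyl, 703 for 3 h and 188 for the change, and CYP71B6 lost its call.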
